A study of Mus musculus with 24 samples.

Results

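Ppp1r3b, Ppp1r3c, Gys2, Gbe1, Ugp2, Pygl and Phka2 are 7 genes of glycogen synthesis and breakdown, and their RNA was followed in livers of obese and lean mice after partial hepatectomy, the surgical removal of part of the liver. The genes were chosen by symbol, and all 13 probes that the platform annotation assigns to them were taken, of 45281 probes in the table. All 13 probes passed the detection filter. The brightest probe of each gene represented it among the 10765 genes tested, and for each of the 7 genes that probe was above background on all 24 arrays.

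Liver RNA of male C57BL/6J mice, aged 12 weeks per the labels, was hybridised to Illumina BeadChip arrays 6 h after surgery. The obese mice, made obese by diet, had undergone sham surgery, 70% hepatectomy or 80% hepatectomy, and the lean mice had undergone the same 3 operations, with 4 arrays in each of the 6 groups. Sham surgery opened the abdomen and handled the liver without removing any of it, so every group had anaesthesia and an incision. The labels number the arrays of a group as replicates and do not say whether each is another mouse, so p-values measure the spread between these arrays.

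The arrays detected 15316 to 17463 probes each, and their number limits the precision. They lay on 4 slides of 6, and the sham arrays shared no slide with the 80% hepatectomy arrays of either diet or with the obese 70% hepatectomy arrays, and in those 3 comparisons surgery cannot be told apart from slide. Lean 70% and lean sham livers were on separate slides too, but each of those slides also carried 2 obese sham arrays. The summed linear level of 7 of 8 hepatocyte markers ranged from 118137 to 147842 over all arrays, and none of 5 skeletal muscle markers passed the detection filter. The summed level of 5 of 9 neutrophil markers was 126 to 147 in obese sham, 1059 to 1950 in obese 70% and 3417 to 5402 in obese 80% livers, and 137 to 219 in lean sham, 1134 to 3642 in lean 70% and 1016 to 2823 in lean 80% livers. The summed level of 2 of 4 cholangiocyte markers was 306 to 462 in obese sham, 881 to 2886 in obese 70% and 1891 to 3489 in obese 80% livers, and 303 to 457 in lean sham, 484 to 1485 in lean 70% and 644 to 3036 in lean 80% livers. That of 5 of 6 stellate cell markers was 5137 to 5551 in obese sham, 5778 to 6350 in obese 70% and 5012 to 8151 in obese 80% livers, and 3707 to 4139 in lean sham, 5199 to 7472 in lean 70% and 5686 to 6567 in lean 80% livers. Summed neutrophil and cholangiocyte markers were therefore above sham in all 4 comparisons below. At adjusted p under 0.05 in limma's moderated test, 4 or 5 of 5 neutrophil markers were higher in each. Of 2 cholangiocyte markers only 1 was. The detection filter of 4 arrays can be met by hepatectomy arrays alone, so it may have favoured a rise of such markers. Summed stellate cell markers were above sham in lean mice and in obese 70% livers. Of 5 stellate cell markers, 4 were higher in each lean comparison and 2 in obese 70% livers. Summed Kupffer cell markers fell below sham in obese 70% (1693 to 2198, against 2221 to 3075) and lean 80% livers (1608 to 2082, against 2239 to 3587). In each of these comparisons 2 of 7 Kupffer cell markers tested were lower and none higher. Summed hepatocyte markers were lower in lean 70% (118137 to 128923) than in lean sham livers (135027 to 139941). One by one, 3 of the 7 hepatocyte markers tested were higher there and 3 lower, so the sum does not describe them all. Elsewhere the Kupffer cell and hepatocyte sums overlapped with sham, although 3 of 7 Kupffer cell markers were higher in lean 70% livers and none lower. The part of all these markers in the results was not tested. In bulk tissue, fewer cells of a type and less RNA per cell cannot be told apart. On lean 70% array 1, Ppp1r3b and Ppp1r3c stood apart from the other 3 arrays of the group, and on lean 70% array 4 Gys2 and Ugp2 did, so the main results that rest on these arrays are also given without them.

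Glycogen is a branched polymer of glucose that hepatocytes build after feeding and break down in fasting. Ugp2 makes UDP-glucose, Gys2, the liver form of glycogen synthase, adds its glucose to the chain, and Gbe1 introduces the branches. Pygl, the liver form of glycogen phosphorylase, releases glucose 1-phosphate and is activated by phosphorylase kinase, whose regulatory alpha subunit in liver is Phka2. Ppp1r3b and Ppp1r3c encode glycogen-targeting subunits that hold protein phosphatase 1 on the glycogen particle, where it activates the synthase and inactivates the phosphorylase. Both enzymes of the pathway are thus controlled in opposite directions by the same phosphatase.

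On GRCm38.p6, Ppp1r3b lies on chromosome 8 (35375694 to 35388139) and Ppp1r3c on chromosome 19 (36731731 to 36736604). Gys2 lies on chromosome 6 (142422612 to 142473130), Gbe1 on chromosome 16 (70313949 to 70569720) and Ugp2 on chromosome 11 (21321126 to 21371267). Pygl lies on chromosome 12 (70190815 to 70227683) and Phka2 on the X chromosome (160501904 to 160598879). The bases upstream of the start are shown for Ppp1r3c and Pygl, which fell in all 4 hepatectomy comparisons, and for Gbe1, which fell in none. They are RefSeq sequence of GRCm38.p6, 250 bases each, 5′ to 3′ on the gene's strand, at chr19:36736605-36736854 (minus strand), chr12:70227684-70227933 (minus strand) and chr16:70313699-70313948 (plus strand). Capitals mark matches, on either strand, to the motifs searched.
Ppp1r3c: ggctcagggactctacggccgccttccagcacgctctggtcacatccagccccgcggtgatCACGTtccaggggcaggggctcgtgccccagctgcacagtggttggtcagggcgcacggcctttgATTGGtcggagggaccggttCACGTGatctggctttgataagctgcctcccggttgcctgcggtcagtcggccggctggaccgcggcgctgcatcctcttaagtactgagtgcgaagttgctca
Pygl: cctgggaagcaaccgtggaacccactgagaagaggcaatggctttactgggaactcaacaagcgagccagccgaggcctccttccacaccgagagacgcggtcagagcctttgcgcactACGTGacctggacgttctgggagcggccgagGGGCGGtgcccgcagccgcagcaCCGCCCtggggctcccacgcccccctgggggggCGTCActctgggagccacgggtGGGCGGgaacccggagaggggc
Gbe1: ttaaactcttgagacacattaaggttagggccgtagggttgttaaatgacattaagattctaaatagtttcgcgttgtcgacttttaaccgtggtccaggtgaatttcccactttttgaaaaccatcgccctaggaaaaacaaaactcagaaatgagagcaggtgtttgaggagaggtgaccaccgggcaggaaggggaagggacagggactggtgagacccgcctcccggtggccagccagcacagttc

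The motifs searched on both strands were ACGTG and the E-box CACGTG that contains it, the forkhead motif TGTTTAC, the cAMP response element TGACGTCA and the shorter TGACG that it contains, the TATA box TATAAA, the CCAAT box and the GC box GGGCGG. The Ppp1r3c window held CACGTG 104 to 99 bases before the start, a further ACGTG match 189 to 185 bases before it, and CCAAT on the opposite strand. CACGTG was present in 6.02% of 32851 RefSeq windows of the same length, ACGTG in 16.6% and CCAAT in 33.8%. The Pygl window held ACGTG 131 to 127 bases before the start, TGACG on the opposite strand, which 17.8% of windows held, and GGGCGG at 3 places, which 32.7% of windows held. The Gbe1 window matched none of these letters. The forkhead motif, the cAMP response element and the TATA box, held by 3.17%, 1.55% and 12.4% of windows, matched neither the Ppp1r3c nor the Pygl window. Of the windows not shown, those of Ugp2, which has 2 listed starts, held ACGTG with a CCAAT box and a GC box before the first and GGGCGG at 2 places before the second, and that of Phka2 held GGGCGG at 2 places. Such a match is a description of the letters only.

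Hepatectomy was compared with sham surgery in each diet to ask which genes change in the first hours of liver regrowth. Ppp1r3b and Ppp1r3c fell steeply, Pygl and Phka2 fell by smaller amounts, and these 4 genes were lower in all 4 comparisons, as were 13.3% of the genes tested. In obese 70% livers, 4 of the 7 genes were lower than in sham livers and none higher, where 24.6% of all genes were lower and 22.2% higher (limma's moderated test, Benjamini-Hochberg adjusted p under 0.05). In obese 80% livers, again 4 were lower and none higher, where 28.7% of all genes were lower and 24.1% higher. In lean 70% livers, 6 were lower and 1 higher, where 26.2% were lower and 21.4% higher. In lean 80% livers, 5 were lower and none higher, where 31.0% were lower and 23.9% higher. The sizes of the changes follow gene by gene.

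**Figure D1:**
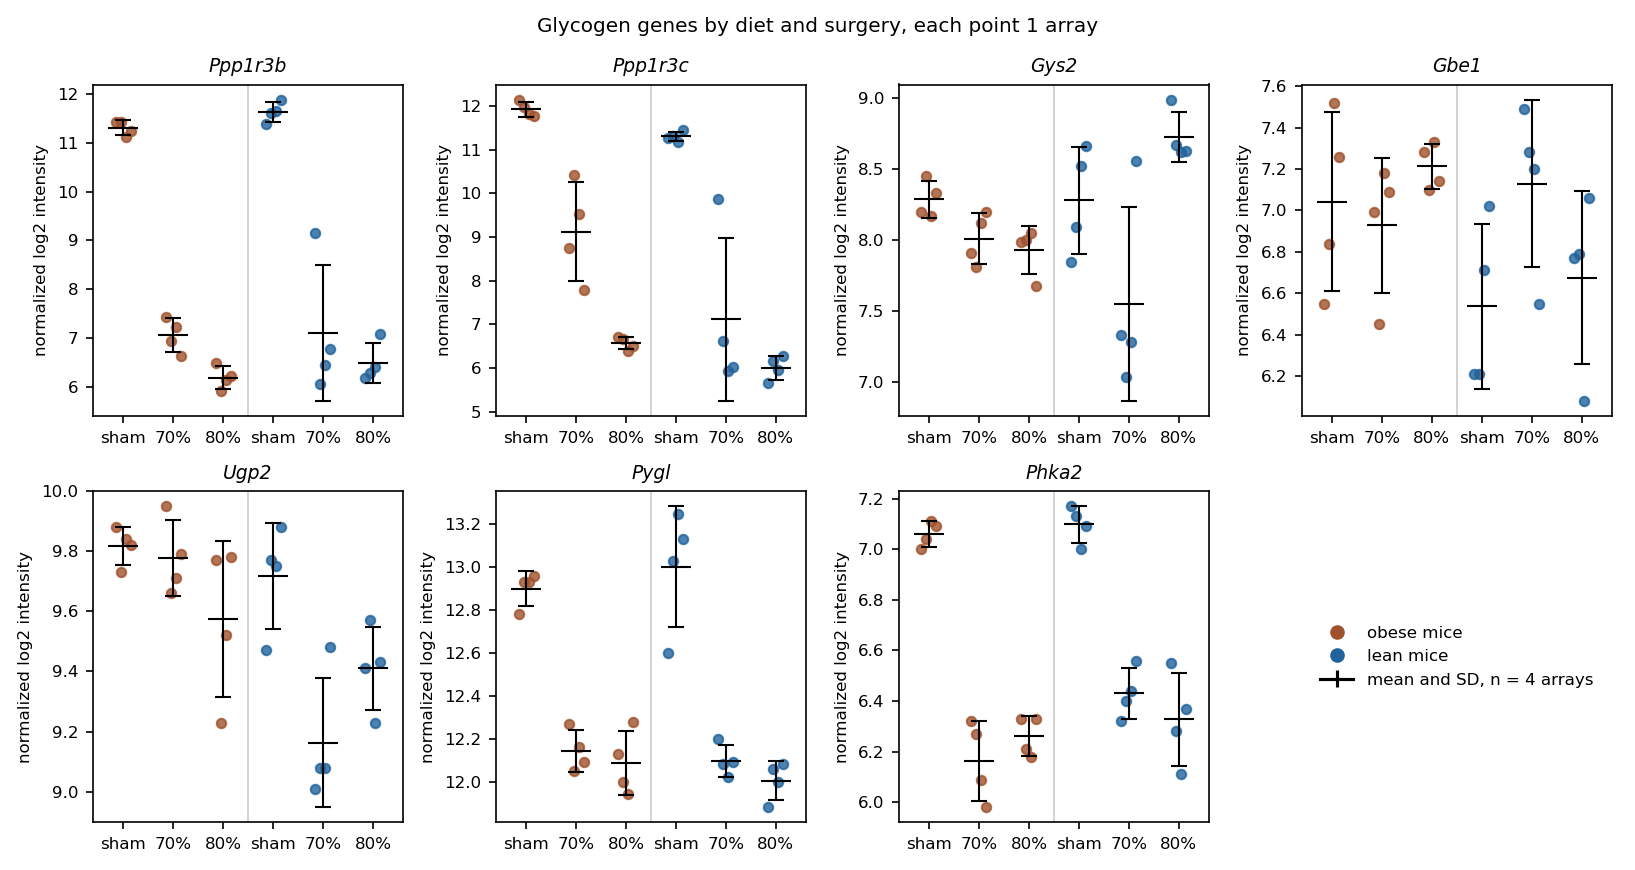
Normalized log2 intensity of each of the 7 genes (vertical axis, its own scale in each panel) by surgery (horizontal axis), with obese mice left and lean mice right of the grey line. Points are single arrays and bars are mean and SD of 4 arrays. Ppp1r3b and Ppp1r3c sit at 11.13 or above on every sham array and at 10.43 or below on every hepatectomy array.

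Ppp1r3b, the liver-type glycogen-targeting subunit, had log2 intensities of 11.44, 11.43, 11.13 and 11.25 in obese sham, 7.44, 6.93, 7.23 and 6.63 in obese 70% and 6.48, 5.92, 6.14 and 6.21 in obese 80% livers. In lean mice Ppp1r3b had 11.38, 11.62, 11.66 and 11.89 in sham, 9.15, 6.05, 6.45 and 6.77 in 70% and 6.18, 6.29, 6.40 and 7.08 in 80% livers. Every hepatectomy array lay below every sham array of its diet, and lean 70% array 1 lay highest among the 16 hepatectomy arrays. Before normalization, the linear bead intensity averaged 186 ± 28.3 in obese 70% and 131 ± 27.1 in obese 80% livers, against 2794 ± 148 in obese sham livers (SD, n = 4 arrays each).

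Ppp1r3b fell in obese mice, with log2 changes of -4.26 after 70% and -5.13 after 80% hepatectomy (SE 0.39), which is 19.1-fold and 35.0-fold lower than in obese sham livers. It fell in lean mice too, with changes of -4.54 after 70% and -5.15 after 80% hepatectomy, 23.2-fold and 35.5-fold lower than in lean sham livers. The adjusted p of limma's test was at most 6.3e-09 in these 4 comparisons. Counted from the most negative change among 10765 genes, Ppp1r3b ranked 2 in lean 70% and 3 in each of the other comparisons. Without lean 70% array 1, the lean 70% change was -5.22.

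The second Ppp1r3b probe was dimmer and was detected on 17 of 24 arrays, with all 4 in each sham group and in obese 70%, 1 of 4 in obese 80%, and 2 of 4 in lean 70% and in lean 80% livers. Its log2 intensity averaged 5.15 in obese 70% and 4.66 in obese 80% livers, against 9.13 in obese sham livers, and 5.40 in lean 70% and 4.88 in lean 80% livers, against 9.28 in lean sham livers. It fell in all 4 comparisons, with log2 changes of -3.98 in obese 70%, -4.47 in obese 80%, -3.89 in lean 70% and -4.40 in lean 80% livers, and the sizes outside obese 70% rest in part on values not above background. Fitted probe by probe, 44.1%, 49.5%, 43.8% and 51.9% of 19631 probes passed in those comparisons. It too was highest after hepatectomy on lean 70% array 1, at 7.04, against 4.56 to 5.10 on the other lean 70% arrays.

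Ppp1r3c, the targeting subunit also found in muscle and other tissues, had log2 intensities of 12.15, 11.99, 11.82 and 11.77 in obese sham, 8.76, 10.43, 9.53 and 7.78 in obese 70% and 6.70, 6.66, 6.40 and 6.51 in obese 80% livers. In lean mice Ppp1r3c had 11.28, 11.31, 11.18 and 11.45 in sham, 9.87, 6.63, 5.93 and 6.02 in 70% and 5.65, 6.15, 5.96 and 6.28 in 80% livers. The obese 70% arrays spread over the range between the obese 80% and obese sham arrays without reaching either. In lean mice, 3 of the 4 arrays at 70% lay within 1 unit of the 80% arrays, and array 1 stood more than 3 units above them.

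Ppp1r3c fell in obese mice, with log2 changes of -2.81 after 70% and -5.36 after 80% hepatectomy (SE 0.56, adjusted p 2.4e-04 and 2.7e-08), 7.01-fold and 41.2-fold lower than in obese sham livers. In lean mice the changes were -4.19 and -5.29 (adjusted p 1.3e-06 and 2.9e-08), 18.3-fold and 39.2-fold lower than in lean sham livers. It had the second most negative change of all genes after 80% hepatectomy in each diet, and ranked 24 in obese 70% and 4 in lean 70%. Without lean 70% array 1 the lean 70% change was -5.11. A single probe measured this gene.

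Pygl, which carries out the phosphorolysis of glycogen in liver, had log2 intensities of 12.78, 12.93, 12.93 and 12.96 in obese sham, 12.27, 12.05, 12.16 and 12.09 in obese 70% and 12.13, 12.0, 11.94 and 12.28 in obese 80% livers. In lean mice Pygl had 12.60, 13.03, 13.25 and 13.13 in sham, 12.20, 12.08, 12.02 and 12.09 in 70% and 11.88, 12.06, 12.0 and 12.08 in 80% livers. Sham and hepatectomy arrays did not overlap in either diet, whereas the 70% and 80% arrays did. Pygl fell in all 4 comparisons, with log2 changes of -0.76 and -0.81 after 70% and 80% hepatectomy in obese mice and -0.90 and -0.997 in lean mice (SE 0.11, adjusted p at most 6.1e-06). These are 1.69-fold to 2.00-fold lower levels than in sham livers. The second Pygl probe also fell in all 4 comparisons, with changes from -0.95 to -0.74.

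Phka2, the regulatory subunit of the kinase that activates Pygl, had log2 intensities of 7.0, 7.04, 7.11 and 7.09 in obese sham, 6.32, 6.27, 6.09 and 5.98 in obese 70% and 6.33, 6.21, 6.18 and 6.33 in obese 80% livers. In lean mice Phka2 had 7.17, 7.13, 7.0 and 7.09 in sham, 6.32, 6.40, 6.44 and 6.56 in 70% and 6.55, 6.28, 6.11 and 6.37 in 80% livers. Again no hepatectomy array reached a sham array of its diet. Phka2 fell in all 4 comparisons, with log2 changes of -0.89 and -0.80 after 70% and 80% hepatectomy in obese mice and -0.67 and -0.77 in lean mice (SE 0.10, adjusted p at most 3.6e-06). Of its other 2 probes, 1 was below background on all lean 70% arrays and the other on all lean 80% and all obese 80% arrays, so neither gives a size there. The first of these had changes of -0.32 in obese 70% (adjusted p 0.086) and -0.31 in obese 80% livers (adjusted p 0.095), which did not pass, and was detected on 2 to 3 arrays of each obese group. In lean 80% livers, where 3 of 4 arrays detected it, its change of -0.55 passed (adjusted p 0.0040). The other passed as lower in obese 70% and lean 70% livers, where 1 of 4 and 2 of 4 arrays detected it.

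Centred on each gene's mean, Pygl and Phka2 followed each other closely over the 24 arrays, with a root mean square difference of 0.21 log2 units against 0.43 for the spread of Pygl itself. In the order of likeness to Pygl, Phka2 was number 74 of the genes tested, and Pygl was number 105 in likeness to Phka2. The nearest genes to Pygl were Rmdn2 (0.12), Pm20d1 (0.13) and Hook3 (0.15), and those to Phka2 were Glyat (0.12), Daglb (0.14) and Anpep (0.15). Fam214a was nearest to both Ppp1r3b (0.51) and Ppp1r3c (0.82). Ppp1r3b was also near Angptl8 (0.56), a secreted regulator of lipoprotein lipase, and Tmem25 (0.68), and Ppp1r3c was near Ppp1r3b (0.97) and Shmt1 (1.15). Ugp2 was nearest to 3 genes of mitochondrial energy metabolism, Idh3b (0.14), Suclg1 (0.15) and Uqcrc2 (0.15). Gys2 was nearest to Slco1a4 (0.27), Apoa5 (0.29) and Mtch2 (0.31), and Gbe1 to Arhgap18, Exosc8 and Prkcd (0.28 to 0.29). These likenesses describe arrays that share groups and slides.

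Gys2, which extends the glycogen chain, changed little beside its targeting subunits. It had log2 intensities of 8.20, 8.45, 8.17 and 8.33 in obese sham, 7.91, 7.81, 8.12 and 8.20 in obese 70% and 7.99, 8.0, 8.05 and 7.68 in obese 80% livers. In lean mice Gys2 had 7.85, 8.09, 8.52 and 8.66 in sham, 7.33, 7.04, 7.28 and 8.56 in 70% and 8.99, 8.67, 8.62 and 8.63 in 80% livers. Lean 70% array 4 lay among the sham arrays and the other 3 lean 70% arrays below all of them.

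Gys2 fell by 0.73 after lean 70% hepatectomy (log2, SE 0.22, adjusted p 0.0093), and the change was -1.06 without array 4 (adjusted p 8.6e-06). Without lean 70% array 2 the adjusted p was 0.051, and with slide as a block the change was -0.65 (adjusted p 0.27). The change was 0.45 after lean 80% (95% interval -0.01 to 0.91, adjusted p 0.092), -0.28 after obese 70% (-0.74 to 0.18, adjusted p 0.32) and -0.36 after obese 80% hepatectomy (-0.82 to 0.10, adjusted p 0.18). Both Gys2 probes gave these calls.

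Ugp2, which supplies UDP-glucose, had log2 intensities of 9.88, 9.73, 9.84 and 9.82 in obese sham, 9.95, 9.66, 9.71 and 9.79 in obese 70% and 9.77, 9.23, 9.52 and 9.78 in obese 80% livers. In lean mice Ugp2 had 9.47, 9.77, 9.75 and 9.88 in sham, 9.01, 9.08, 9.08 and 9.48 in 70% and 9.41, 9.57, 9.23 and 9.43 in 80% livers. Of the lean 70% arrays, 3 lay below every sham array and array 4 just above the lowest of them. Ugp2 averaged 9.82 ± 0.06 in obese sham, 9.78 ± 0.12 in obese 70% and 9.57 ± 0.26 in obese 80% livers, and 9.72 ± 0.18 in lean sham, 9.16 ± 0.21 in lean 70% and 9.41 ± 0.14 in lean 80% livers (log2, SD, n = 4 arrays each). It fell in lean mice, with log2 changes of -0.56 after 70% (SE 0.12, adjusted p 6.6e-04), or -0.66 without array 4, and -0.31 after 80% hepatectomy (adjusted p 0.039). The lean arrays of sham and hepatectomy groups overlapped. The obese changes of -0.04 (95% interval -0.30 to 0.21) and -0.25 (-0.50 to 0.01) did not pass the test, with adjusted p 0.80 and 0.10. With slide as a block the lean 70% change was -0.59 with adjusted p 0.057, and the lean 80% call was lost, with adjusted p 0.058 to 0.12, on leaving out any 1 of lean sham arrays 2, 3 and 4 and lean 80% arrays 1, 3 and 4.

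Gbe1, the branching enzyme, had log2 intensities of 6.55, 6.84, 7.52 and 7.26 in obese sham, 6.99, 6.45, 7.18 and 7.09 in obese 70% and 7.28, 7.10, 7.33 and 7.14 in obese 80% livers. In lean mice Gbe1 had 6.21, 6.21, 6.71 and 7.02 in sham, 7.49, 7.28, 7.20 and 6.55 in 70% and 6.77, 6.79, 6.08 and 7.06 in 80% livers. Lean 70% array 4 lay among the sham arrays and the other 3 above them. Gbe1 averaged 7.04 ± 0.43 in obese sham, 6.93 ± 0.33 in obese 70% and 7.21 ± 0.11 in obese 80% livers, and 6.54 ± 0.40 in lean sham, 7.13 ± 0.41 in lean 70% and 6.67 ± 0.42 in lean 80% livers (log2, SD, n = 4 arrays each). It rose by 0.60 in lean 70% livers over lean sham (SE 0.23, adjusted p 0.039), and these groups overlapped. That call ended with slide as a block, where the change was -0.10 (adjusted p 0.89), and on leaving out any 1 of lean sham arrays 1 and 2 and lean 70% arrays 1, 2 and 3 (adjusted p 0.078 to 0.13). In obese sham livers, which lay on 2 slides, Gbe1 differed by -0.70 between slide 1, which held all lean sham arrays, and slide 2, which held all lean 70% arrays. The second Gbe1 probe was below background on every lean sham and every lean 70% array and did not pass there (0.21, adjusted p 0.18). The lean 70% rise thus rests on 1 probe. In lean 80% livers, where 1 of 4 arrays detected it, the second probe passed as higher (0.33, adjusted p 0.026). It passed in neither obese comparison with sham.

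For the other 4 genes, the lean 70% change with slide as a block was -4.30 for Ppp1r3b (adjusted p 1.2e-04), -3.92 for Ppp1r3c (adjusted p 0.0072), -0.99 for Pygl (adjusted p 8.0e-04) and -0.74 for Phka2 (adjusted p 0.0018). Lean 70% was the only hepatectomy group that could be set against sham in this way.

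**Figure D2:**
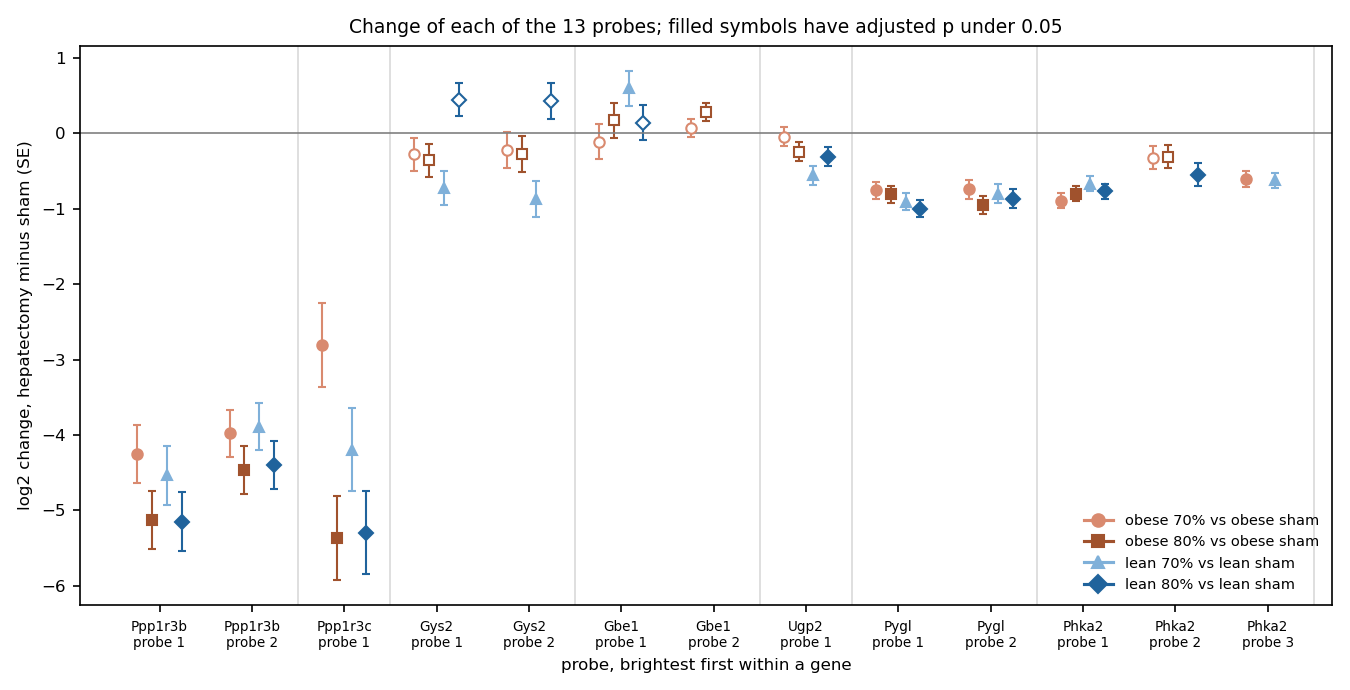
Log2 change of each of the 13 probes (horizontal axis, brightest first within a gene) between hepatectomy and sham livers, with SE, from a fit of 19631 probes. Points are left out where a probe was below background on every array of a group, and all Ppp1r3b, Ppp1r3c and Pygl points are filled, with adjusted p under 0.05.

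Genes without overlap between hepatectomy and sham numbered 4 in obese 70% (46.1% of all genes), 5 in obese 80% (51.4%), 4 in lean 70% (40.7%) and 4 in lean 80% (44.7%). They were Ppp1r3b, Ppp1r3c, Pygl and Phka2, with Gys2 added in obese 80%.

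In order of mean level, Ppp1r3b, Pygl and Phka2 were highest in lean sham and then obese sham livers, which overlapped, and every hepatectomy group lay apart below them with neighbours that overlapped. Ppp1r3c ran from obese sham through lean sham, obese 70%, lean 70% and obese 80% to lean 80% livers, where obese 70%, lean 70% and obese 80% overlapped with their neighbours in turn and the other steps were apart. Gys2 had its highest mean in lean 80% livers, which did not overlap with the next group, obese sham, but did with lean sham livers, and its other neighbours overlapped from obese sham through lean sham, obese 70% and obese 80% to lean 70% livers. Gbe1 ran from obese 80% through lean 70%, obese sham, obese 70% and lean 80% to lean sham, and Ugp2 from obese sham through obese 70%, lean sham, obese 80% and lean 80% to lean 70% livers, all neighbours overlapping.

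Obese and lean livers were compared within each operation to ask whether obesity alters these levels. After sham surgery none of the 7 genes passed limma's test, where 6.10% of all genes were higher and 6.09% lower in obese livers. Gbe1, at 0.51 (95% interval 0.02 to 0.99), was the only one of the 7 with an unadjusted p under 0.05 (0.042). Within slide 1, which held all lean sham and 2 obese sham arrays, the Gbe1 difference was 0.16. The sham difference of Ppp1r3b was -0.32 (95% interval -1.13 to 0.49) and that of Ppp1r3c 0.63 (-0.53 to 1.79, adjusted p 0.55). The Ppp1r3c sham arrays did not overlap, at 11.77 to 12.15 in obese and 11.18 to 11.45 in lean livers, as was so for 20.0% of all genes.

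After 70% hepatectomy Ppp1r3c and Ugp2 were higher and Phka2 lower in obese livers, where 16.9% of all genes were higher and 13.7% lower. Ppp1r3c was higher by 2.01 (log2, SE 0.56, adjusted p 0.0089), 4.04-fold, and 13 genes had a larger positive difference. Without lean 70% array 1 the difference was 2.93 (adjusted p 2.7e-06). Ugp2 was higher by 0.62 (SE 0.12, adjusted p 6.8e-04) and its arrays did not overlap, at 9.66 to 9.95 in obese and 9.01 to 9.48 in lean livers. The Ugp2 difference was 0.72 without lean 70% array 4. Obese and lean 70% arrays overlapped in the other 6 genes, and 26.8% of all genes did not overlap.

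Phka2 was lower in obese 70% livers (-0.26, adjusted p 0.040), a call that ended with slide as a random block (adjusted p 0.10), with the mean of its probes (-0.08, adjusted p 0.54) and on leaving out any 1 of 5 arrays. Ppp1r3b differed by -0.04 between obese and lean 70% livers (95% interval -0.85 to 0.77), and by 0.64 without lean 70% array 1 (adjusted p 0.024). Gys2 differed by 0.46 (adjusted p 0.12), and by 0.79 without lean 70% array 4 (adjusted p 6.6e-04). Kupffer cell markers moved with this comparison, 6 of 7 tested being lower in obese 70% livers. Their summed level was 1693 to 2198 there, against 1707 to 4709 in lean 70% livers. Summed hepatocyte markers did not overlap, at 131388 to 135686 in obese and 118137 to 128923 in lean 70% livers. Of 7 hepatocyte markers tested, 2 were higher and 2 lower in obese 70% livers. The part of both sets of markers in the results was not tested. The obese and lean 70% arrays shared no slide, so slide and diet cannot be told apart there.

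After 80% hepatectomy Gys2 was lower in obese livers, by a log2 difference of -0.80 (SE 0.22, adjusted p 0.012). It was the only one of the 7 genes to pass, where 9.46% of all genes were lower and 13.5% higher. Its arrays did not overlap, at 7.68 to 8.05 in obese and 8.62 to 8.99 in lean livers, and both probes gave the call in a fit where 19.7% of probes passed. Within slide 4, which held all obese 80% and 2 lean 80% arrays, the difference was -0.69, and with slide as a block it had adjusted p 0.11. Ppp1r3c (0.56, adjusted p 0.52) and Gbe1 (0.54, adjusted p 0.10) also had arrays that did not overlap between the diets, so 3 of 7 genes did, where 20.9% of all genes did. Hepatocyte marker sums in the 80% groups were 126621 to 133904 in obese and 131989 to 147842 in lean livers, and 2 of 5 neutrophil markers were higher in obese livers. Their part in the result was not tested.

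**Figure D3:**
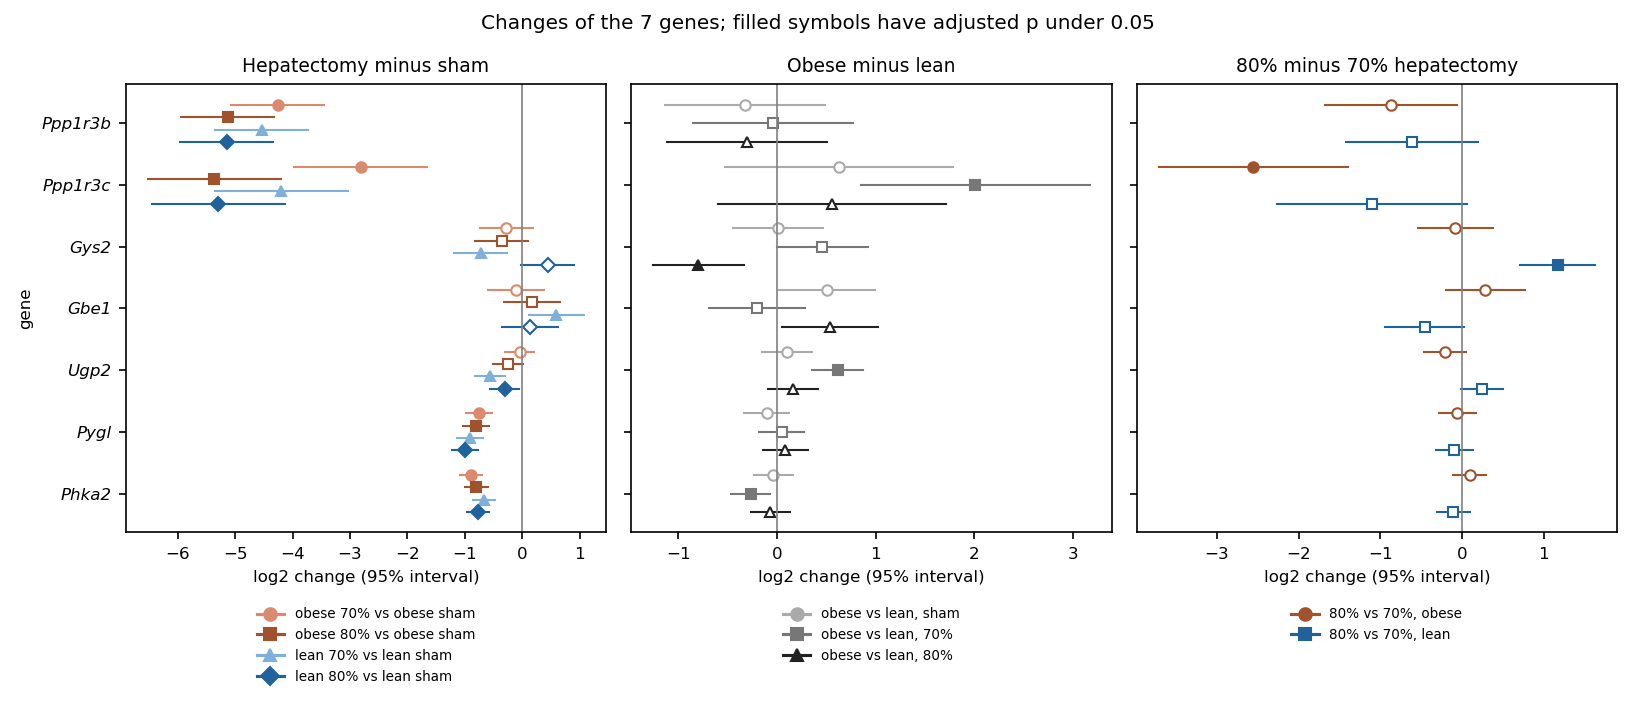
Log2 change of each gene with its 95% interval, for hepatectomy minus sham (left), obese minus lean (middle) and 80% minus 70% hepatectomy (right). Filled symbols passed limma's test at adjusted p under 0.05. The Ppp1r3b and Ppp1r3c changes against sham lie at -2.81 or below, and those of the other 5 genes between -0.997 and 0.60.

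The larger and the smaller resection were compared within each diet. In obese livers Ppp1r3c was lower after 80% than after 70% hepatectomy, with a log2 change of -2.56 (SE 0.56, adjusted p 0.0081), the most negative of all 10765 changes, at 6.40 to 6.70 against 7.78 to 10.43. It was the only one of the 7 genes to pass, where 3.55% of all genes were lower and 4.31% higher. Of 5 neutrophil markers 3 were higher after 80% hepatectomy, and their part was not tested. With slide as a block the change was -2.78 with adjusted p 0.12. Ppp1r3b changed by -0.87 (95% interval -1.68 to -0.06, adjusted p 0.18), with no overlap of arrays, as for 15.0% of all genes, and without lean 70% array 1, which lies in neither group but adds to the shared spread, its adjusted p was 0.0088.

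In lean livers Gys2 was higher after 80% than after 70% hepatectomy by 1.17 (SE 0.22, adjusted p 0.0011), 2.25-fold, with 8.62 to 8.99 against 7.04 to 8.56. It was the only one of the 7 genes to pass, where 7.02% of all genes were higher and 9.60% lower, and the only one without overlap, as for 12.6% of all genes. The second Gys2 probe was higher too, by 1.30, but its arrays overlapped, at 7.88 to 8.42 against 6.14 to 7.94. All 7 Kupffer cell markers tested were lower after 80% than after 70% hepatectomy in lean livers, with summed levels of 1608 to 2082 against 1707 to 4709. Summed hepatocyte markers were higher, at 131989 to 147842 against 118137 to 128923. Of 7 hepatocyte markers tested, 2 were higher and none lower. The part of both sets of markers was not tested. The lean 70% and lean 80% arrays shared no slide, so slide and resection size cannot be told apart there. Ppp1r3c changed by -1.10 (95% interval -2.26 to 0.06, adjusted p 0.18), and by -0.18 without lean 70% array 1. Ppp1r3b changed by -0.61 (adjusted p 0.30), and by 0.070 without that array. Without lean 70% array 4 the Gys2 change was 1.51, and that of Ugp2 was 0.35 (adjusted p 0.042) in place of 0.25 (adjusted p 0.17).

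Whether the diets differed in their response was tested with interaction terms. Ugp2 responded differently to 70% hepatectomy, by 0.51 (obese change minus lean change, log2, SE 0.18, adjusted p 0.044), the only one of the 7 to pass, where 9.82% of all genes had a positive and 8.31% a negative interaction. That call was lost with slide as a random block (adjusted p 0.14), without a detection filter (adjusted p 0.057) and on leaving out any 1 of 13 arrays (0.46 to 0.54, adjusted p 0.052 to 0.090), and it was 0.62 without lean 70% array 4. Gys2 responded differently to resection size, by -1.26 (SE 0.31, adjusted p 0.013), the only one to pass, where 6.97% of all genes had a positive and 5.40% a negative one, and with slide as a random block it had adjusted p 0.073. Without lean 70% array 4 it was -1.59 (adjusted p 6.6e-05). None of the 7 genes passed for the interaction with 80% hepatectomy by limma, where 6.51% of all genes had a positive and 4.52% a negative one. Gys2, at -0.81, had the only unadjusted p under 0.05 among them (0.017), and with array weights it passed (-0.77, adjusted p 0.032).

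The interaction of Ppp1r3c with 70% hepatectomy was 1.38 (95% interval -0.25 to 3.02, adjusted p 0.23), and 2.30 without lean 70% array 1 (adjusted p 0.0021). Its interaction with resection size was -1.46 (adjusted p 0.23), and -2.37 without that array (adjusted p 0.0037). Ppp1r3b gave 0.28 with 70% hepatectomy (adjusted p 0.77), and 0.96 without that array (adjusted p 0.022), and with resection size -0.26 (adjusted p 0.80), and -0.94 without it (adjusted p 0.038). That array thus decides whether these interactions are called for both targeting subunits. The Ppp1r3c difference between obese and lean 70% livers passed with and without that array.

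The other genes of the pathway were taken from 6 lists of 46 genes in all, of which 34 were tested. Of these 34, 3 rose and 15 fell in obese 70%, 5 rose and 16 fell in obese 80%, 8 rose and 10 fell in lean 70%, and 9 rose and 14 fell in lean 80% livers, against sham. Over all genes tested, in the same order, 22.2%, 24.1%, 21.4% and 23.9% rose and 24.6%, 28.7%, 26.2% and 31.0% fell. The counts of single lists below are to be read beside these same shares. The median change of the 34 was -0.18, -0.20, -0.11 and -0.05 in that order, beside -0.02, -0.04, -0.03 and -0.06 over all genes. Probes of Gys1, Pygm, Phkg1, Ppp1r3e, Pgm2, Hk1, Akt2 and Adra1b did not pass the detection filter.

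Among 8 other subunits of protein phosphatase 1, 1 rose and 1 fell in obese 70%, 3 rose and 2 fell in obese 80%, 4 rose and none fell in lean 70% and 6 rose and 1 fell in lean 80% livers. Ppp1r3g, another glycogen-targeting subunit, had log2 intensities of 4.55, 4.88, 4.70 and 4.76 in obese sham, 5.05, 4.54, 5.25 and 5.73 in obese 70% and 6.21, 6.06, 6.11 and 6.62 in obese 80% livers. In lean mice Ppp1r3g had 5.03, 4.48, 4.54 and 4.54 in sham, 5.30, 7.37, 7.51 and 9.97 in 70% and 9.64, 8.73, 7.67 and 8.32 in 80% livers. Lean hepatectomy arrays other than lean 70% array 1 read 7.37 or more, and 1 of 4 sham arrays in each diet and 3 of 4 obese 70% arrays detected the gene. Changes against sham and interactions are thus fitted against levels near background and may understate the change. Ppp1r3g met the detection filter through the hepatectomy groups and not through sham arrays alone, and the filter thus favoured its rise. Its fitted log2 change was 1.53 in obese 80% (SE 0.55, adjusted p 0.023), 2.89 in lean 70% (adjusted p 1.3e-04) and 3.94 in lean 80% livers (adjusted p 1.9e-06), where it rose, and 0.42 in obese 70% livers, which did not pass (adjusted p 0.56).

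Ppp1r3g was lower in obese than in lean livers, with differences of -2.40 after 70% and -2.34 after 80% hepatectomy (adjusted p 0.0022 and 0.0039). The interactions of diet with 70% and with 80% hepatectomy were -2.48 and -2.42 (adjusted p 0.030 and 0.047). Ppp1r3d, a further targeting subunit, was below background on all sham and all lean 70% arrays and passed the detection filter only through groups where it was high. It was at least 1.31-fold higher in obese 70%, 1.29-fold in obese 80% and 1.12-fold in lean 80% livers, where 3 of 4 arrays detected it, measured against the detection floor of each array. The filter thus favoured a rise of Ppp1r3d, as it did of Ppp1r3g. The counts above of subunits and of other pathway genes that rose include both genes where they passed. Their part in those counts is no support for a rise. The catalytic subunit Ppp1cb rose by 0.44 in lean 70% and 0.80 in lean 80% livers.

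Of 4 phosphorylase kinase and phosphorylase genes tested, 1 fell in obese 70%, 2 in obese 80%, 1 in lean 70% and 1 in lean 80% livers, and none rose. Pygb, the brain form of phosphorylase, fell in obese 80% (-0.31), lean 70% (-0.93) and lean 80% livers (-1.13), and was lower in obese than in lean livers after sham surgery (-0.55, adjusted p 0.0045). It was detected on 2 of 4 lean 70% and 1 of 4 lean 80% arrays, so the lean sizes rest in part on values not above background. Phkb, the beta subunit of phosphorylase kinase, fell in obese 70% (-0.29) and obese 80% livers (-0.74). Stbd1, which tethers glycogen to membranes, fell in all 4 comparisons, with changes of -0.95 and -1.26 in obese 70% and 80% livers and -0.62 and -1.60 in lean 70% and 80% livers. Of the 2 genes of glucose 1-phosphate supply and priming, Pgm1, a phosphoglucomutase, fell in all 4 (-0.64 to -0.27), and Gyg, glycogenin, rose by 0.45 in lean 70% livers.

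Of 5 genes for glucose and glucose 6-phosphate entry and exit, 3 fell and none rose in each hepatectomy comparison. G6pc, the catalytic subunit of glucose 6-phosphatase, averaged 12.63 in obese sham, 9.43 in obese 70% and 8.67 in obese 80% livers, and 12.29 in lean sham, 10.84 in lean 70% and 10.24 in lean 80% livers. It fell in all 4 comparisons, with changes of -3.20 and -3.96 in obese mice and -1.45 and -2.05 in lean mice (SE 0.30, adjusted p at most 3.4e-04). It was lower in obese than in lean livers, with differences of -1.41 after 70% and -1.57 after 80% hepatectomy. Slc2a2, the liver glucose transporter, fell in all 4 (-0.98 to -0.74).

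Of 11 hormone and kinase genes, 2 rose and 6 fell in obese 70%, obese 80% and lean 80% livers, and 2 rose and 4 fell in lean 70% livers. Prkaca, a catalytic subunit of protein kinase A, fell in obese 70% (-1.01), obese 80% (-1.05), lean 70% (-0.30) and lean 80% livers (-0.82). Prkar1a, a regulatory subunit that holds that kinase inactive, rose by 0.48 and 0.57 in obese 70% and 80% livers and by 0.72 and 0.86 in lean 70% and 80% livers. Prkaa2 and Prkag2, subunits of the AMP-activated kinase, fell in all 4 comparisons, with changes of -1.29 to -0.85 and -1.16 to -0.66.

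**Figure D4:**
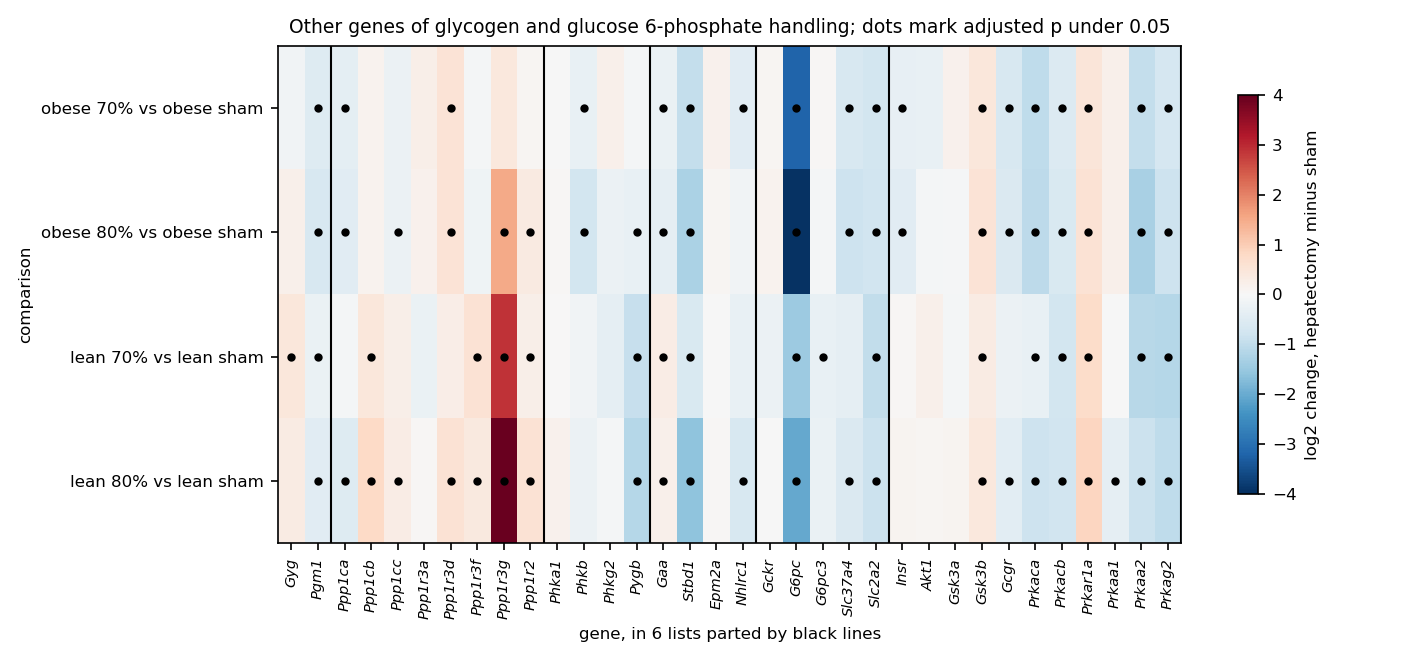
Log2 change of the 34 other pathway genes (horizontal axis, 6 lists parted by black lines) in the 4 comparisons of hepatectomy with sham (vertical axis), on a colour scale from -4 (blue) to 4 (red). Black dots mark adjusted p under 0.05. Ppp1r3g rose most in lean 80% livers (3.94), and G6pc fell most in obese 80% livers (-3.96). Values of Ppp1r3d, Ppp1r3a and Akt1, of Pygb in lean mice and of Ppp1r3g in sham livers are fitted values near background.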

How the data were processed

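Liver RNA was measured on 24 arrays in 6 groups of 4, grouped by the labels. The deposited table gives bead intensity, not normalized between arrays, and a detection score per probe, which rises with brightness, so 1 minus the deposited score was used as detection p. The authors' deposited series matrix holds log2 values, quantile-normalized and centred on each probe's median, as recomputed here to within 0.00957, and it served as an alternative. The sources used here do not state scanner settings.

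With limma 3.58.1 in R 4.3.3, intensities were background-corrected (normexp by detection p, offset 16), quantile-normalized and put on the log2 scale. Probes with detection p under 0.05 on at least 4 arrays were kept (19631), and the brightest probe per gene was tested (10765 genes), named through the platform table and RefSeq (34807 of 34885 probes with 1 gene matched by Entrez ID, of 45281). A model with 6 group means and 18 residual degrees of freedom gave 12 contrasts, tested two-sided and adjusted by Benjamini-Hochberg over all genes of a contrast. The fit was tested on simulated data. Slides came from the labels' array positions. Same-numbered arrays of different groups did not deviate together (correlations -0.21 to 0.18), so the numbers were not used as pairs.

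The members, lists and tests were chosen with earlier results of these data known. Named genes were the 7 members and their probes, at most 4 called genes of each other list per comparison, by size of change, and for each member the 3 genes of nearest profile. Alternatives covered background, offset, scaling, filter, probe choice, the authors' values, slide, replicate block, array weights and leaving out each array. Promoter windows were available for 5 members, Ppp1r3b and Gys2 being the others.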

Additional observations from a re-analysis of the deposited data

Results flagged for a closer look

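Within groups of 4 arrays, 42 combinations of gene and group were looked at for an array far from the other 3, by Dixon's ratio of its gap to the group's range at the 95% level, and 4 stood out. Chance flags about 1 in 20 groups. For Gys2 they were obese 80% array 4 (ratio 0.851), at 7.68 with the nearest array at 7.99, and lean 80% array 1 (ratio 0.863), at 8.99 with the nearest at 8.67. For Ugp2 it was lean 70% array 4 (ratio 0.849), at 9.48 with the nearest at 9.08. For Pygl it was obese sham array 1 (ratio 0.842), at 12.78 with the nearest at 12.93. Lean 70% array 1 did not exceed the level for Ppp1r3b or Ppp1r3c, where the other 3 arrays also spread.

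Differences between the diets in the response to surgery, tested as interactions, were found for Gys2 with resection size (-1.26, obese minus lean) and for Ugp2 with 70% hepatectomy (0.51). Neither passed with slide as a random block (adjusted p 0.073 for Gys2 and 0.14 for Ugp2). The Ugp2 interaction also missed the threshold without a detection filter (adjusted p 0.057) and on leaving out any 1 of 13 arrays. Their causes were not tested.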

How the results depend on the processing

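Calls against sham for Ppp1r3b, Ppp1r3c, Pygl and Phka2 kept their direction and their side of the threshold under every alternative run, each array left out included. With slide as a fixed block, possible for 4 comparisons, the number of the 7 genes passing was 4 in lean 70% (2496 of all genes, against 5126 without the block), 0 for obese against lean at 80% (1323 against 2469), 0 for 80% against 70% in obese mice, and unchanged at 0 after sham surgery (594 against 1313). With slide as a random block it was 0 for the interactions with 70% hepatectomy (853 of all genes against 1952) and with resection size (376 against 1331), and the counts over all genes were 2051 against 3293 for obese against lean at 70%, 799 against 1789 for resection size in lean and 275 against 846 in obese mice. With array weights it was 2 for resection size in lean mice, 2 in obese mice (2156 genes against 846), 1 for the interaction with 80% hepatectomy (1857 against 1188) and 2 for that with resection size (2362 against 1331). Without a detection filter it was 0 for the interaction with 70% hepatectomy, and with upper-quartile scaling 2 for that with resection size. Requiring detection on all 24 arrays gave 1173 genes for resection size in lean mice. With the replicate block, which the pairing check did not call for, 7 genes passed in lean 70% livers, and no count of the 7 moved.

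Leaving out 1 array at a time gave 0 to 3 genes for the interaction with 70% hepatectomy, 1 to 3 for that with resection size, 0 to 1 for that with 80% hepatectomy, 1 to 3 for resection size in lean mice and 1 to 2 in obese mice, where all-gene counts were 308 to 1088.

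Most reversals were of differences near 0 that passed the test on neither side. The exceptions were Gbe1 in lean 70% livers (-0.10 with slide as a fixed block) and Ppp1r3b in obese against lean 70% livers (0.64 without lean 70% array 1). The others under upper-quartile scaling were Ppp1r3b obese against lean at 70% (0.044), Ppp1r3c interaction with 80% (0.041), and Pygl obese against lean at 80% (-0.16), resection size in lean (0.073) and its interaction (-0.28). With the mean of a gene's probes they were Ppp1r3b (-0.023), Gbe1 (-0.0080) and Phka2 (0.078) for the interaction with 80%, Phka2 (0.093) for that with 70%, Pygl (-0.053) and Phka2 (-0.015) for that with resection size, Gys2 obese against lean sham (-0.028), Pygl obese against lean at 80% (-0.040) and Phka2 resection size in lean (0.023). With array weights they were Ppp1r3b obese against lean at 70% (0.13), Gbe1 obese 70% (0.014) and Pygl interaction with resection size (-0.026). With slide as a random block they were Ppp1r3b (-0.064) and Phka2 (0.00051) for the interaction with 80%. With slide as a fixed block they were Gys2 resection size in obese (0.12) and Phka2 obese against lean at 80% (0.023).

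With 1 array left out, ranges that crossed 0 were -0.39 to 0.64 (Ppp1r3b obese against lean, 70%), -0.96 to 0.070 (Ppp1r3b resection size, lean), -0.071 to 0.96, -0.083 to 0.22 and -0.94 to 0.092 (its interactions with 70%, 80% and resection size), -0.19 to 0.019 (Ppp1r3c interaction with 80%), -0.13 to 0.14 (Gys2 obese against lean sham), -0.15 to 0.0022 (Gys2 resection size, obese), -0.28 to 0.046 (Gbe1 obese 70%), -0.17 to 0.19 (Gbe1 interaction with 80%), -0.0041 to 0.18 (Ugp2 interaction with 80%), -0.026 to 0.088 (Pygl interaction with resection size), -0.14 to 0.0099 (Phka2 obese against lean, 80%) and -0.10 to 0.047 (Phka2 interaction with 80%). The causes were not tested. The 4 arrays of a group limit what differences can be shown.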
